A study of Mus musculus with 48 samples.

Results

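Respiratory complexes II to V of the mitochondrial inner membrane, with cytochrome c, are built largely from proteins encoded in the nucleus, and the genes described here are those nuclear genes. They are the protein-coding genes in the deposited tables whose symbol is Sdha, Sdhb, Sdhc, Sdhd, Cyc1 or Cycs or begins with Uqcr, Atp5 or one of Cox4 to Cox8. The rule gave 49 of the 49585 genes in the tables, and it used names only, not measured values. Of the 49, 4 belong to complex II, 9 to complex III, 1 is cytochrome c, 18 belong to complex IV and 15 to complex V. The other 2, Atp5s and Atp5sl, carry the ATP synthase name without encoding a subunit of the enzyme. For tests a gene had to reach 1 FPKM (fragments counted per unit of exon length and of library total) in at least 4 libraries, which 47 of the 49 members did.

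RNA was measured by mRNA sequencing in whole kidneys of mice that received D-alanine, the mirror-image form of L-alanine, or vehicle. Kidneys were taken at 6 circadian times, CT0, CT4, CT8, CT12, CT16 and CT20, which gave 6 D-alanine groups and 6 vehicle groups of 4 libraries each, or 24 libraries per treatment. The mice are labelled WT, and the sources used here state no strain, age, dose or route. The values were deposited as 2 tables, and each table holds 2 libraries of each group, 24 in all; per the series text the experiment was done on 2 occasions with kidneys of different mice, and taking the tables as those occasions is an inference.

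Complex II (succinate dehydrogenase) passes electrons from succinate of the citric acid cycle to ubiquinone, complex III (the cytochrome bc1 complex) passes them on to cytochrome c, and complex IV (cytochrome c oxidase) hands them to oxygen. Complexes III and IV pump protons as they do so, and complex V (ATP synthase) uses the returning protons to make ATP. The kidney, above all its proximal tubule, is rich in mitochondria because the reabsorption of salt and solutes consumes ATP. Complex II is encoded entirely in the nucleus, whereas complexes III, IV and V also contain subunits from the mitochondrial genome.

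The depth recovered from the steps of the FPKM values was 7626000 to 14403200 fragments per library. Summed over 10 marker genes, the proximal tubule stood between 27887 and 61312 FPKM in D-alanine kidneys and between 36895 and 72014.5 FPKM in vehicle kidneys. Most of that sum came from Kap, which averaged 42025 FPKM in D-alanine and 45988 FPKM in vehicle kidneys. Slc34a1, another of the 10, averaged 1903 FPKM in D-alanine and 1948 FPKM in vehicle kidneys. Summed markers of the inner medulla (7 genes) ranged from 52.7 to 2992 FPKM in D-alanine kidneys and from 68.1 to 994 FPKM in vehicle kidneys. Summed adipose markers (9 genes, 2 of them with a median of 0) ranged from 0.16 to 71.8 FPKM in D-alanine kidneys and from 0 to 20.8 FPKM in vehicle kidneys. None of the tubule, medulla, vascular, immune, muscle, blood or adipose markers tested passed the treatment test (limma), for which 1 of 7 striated muscle, 4 of 5 macrophage and 6 of 9 adipose markers were high enough. The log2 change from D-alanine was above 0 in all 7 endothelial markers (median 0.17, 5 of them at an unadjusted limma p under 0.05). It was also above 0 in all 6 fibroblast and smooth muscle markers (0.17, 2 of them) and in the 6 adipose markers tested (0.42, 5 of them). Inner medulla markers had a median of 0.37, with 5 of 7 above 0 and 1 at that p. Over all genes the median was 0.06, with 11391 of 14922 above 0 and 3064 at that p. The part of these cell types in the members' values was not tested. In whole kidney, fewer cells of a type and less RNA per cell cannot be told apart.

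Promoters of 35 of the 49 genes were found in RefSeq (GRCm38.p6), as windows of 250 bases before to 50 bases after the start. The 250 bases upstream of the start are printed for 5 genes, 5′ to 3′ on the minus strand, on which all 5 lie. Cox8a is the most abundant member and Cox8b its rare tissue-specific counterpart; Cox7a2l is one of the members with the smallest p for treatment; Atp5g3 and Atp5l hold letters that occur more often in these promoters than in others. Capitals mark the core of the nuclear respiratory factor 1 motif (GCATGCGC), the ETS motif (CCGGAAG), the estrogen-related receptor motif (TCAAGGTCA or its shorter form AAGGTCA) and the SP1 motif (GGGCGG), each on either strand. The windows are chr19:7217617-7217866 for Cox8a, chr7:140900447-140900696 for Cox8b, chr17:83514334-83514583 for Cox7a2l, chr2:73911327-73911576 for Atp5g3 and chr9:44920743-44920992 for Atp5l.
Cox8a: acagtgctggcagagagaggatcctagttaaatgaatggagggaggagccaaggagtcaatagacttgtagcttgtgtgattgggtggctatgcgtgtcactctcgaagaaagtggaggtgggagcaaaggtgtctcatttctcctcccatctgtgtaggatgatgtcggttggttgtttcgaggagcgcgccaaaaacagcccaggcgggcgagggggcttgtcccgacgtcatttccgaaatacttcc
Cox8b: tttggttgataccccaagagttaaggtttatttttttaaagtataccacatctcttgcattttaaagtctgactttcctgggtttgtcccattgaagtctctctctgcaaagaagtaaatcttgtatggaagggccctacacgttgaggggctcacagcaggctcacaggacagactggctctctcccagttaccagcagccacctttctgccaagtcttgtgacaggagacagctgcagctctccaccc
Cox7a2l: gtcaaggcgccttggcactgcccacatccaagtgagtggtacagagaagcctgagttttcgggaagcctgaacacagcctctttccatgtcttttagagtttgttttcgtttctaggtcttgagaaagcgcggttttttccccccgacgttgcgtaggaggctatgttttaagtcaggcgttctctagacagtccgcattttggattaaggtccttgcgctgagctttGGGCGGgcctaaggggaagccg
Atp5g3: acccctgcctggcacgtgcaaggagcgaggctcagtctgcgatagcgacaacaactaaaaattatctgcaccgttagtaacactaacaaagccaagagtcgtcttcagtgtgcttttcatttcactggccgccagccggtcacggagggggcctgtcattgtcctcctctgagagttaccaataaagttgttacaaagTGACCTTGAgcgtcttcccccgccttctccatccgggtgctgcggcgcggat
Atp5l: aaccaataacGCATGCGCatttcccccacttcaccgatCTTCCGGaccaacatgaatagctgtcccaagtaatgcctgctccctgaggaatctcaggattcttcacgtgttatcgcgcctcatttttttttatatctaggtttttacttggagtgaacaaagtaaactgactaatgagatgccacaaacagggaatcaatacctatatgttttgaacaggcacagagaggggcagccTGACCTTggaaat

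Among these windows, Atp5l held the nuclear respiratory factor 1 core, the ETS letters and the shorter receptor motif, Atp5g3 the full receptor motif on the reverse strand (TGACCTTGA), and Cox7a2l the SP1 letters. Cox8a and Cox8b held none of them within the printed bases. Over the whole 300-base windows, GCATGCGC was present in 8 of the 35 promoters (22.9%), those of Sdhb, Uqcr11, Uqcrc1, Cycs, Cox6a1, Atp5g2, Atp5k and Atp5l, against 3.93% of 17491 protein-coding genes. CCGGAAG was present in 12 (34.3%), among them Sdhb, Sdhd, Uqcrh, Cox6b1 and Cox8a, against 12.9% of protein-coding genes. TCAAGGTCA was present in 2 (5.71%) against 0.377%, and its shorter form AAGGTCA in 5 (14.3%) against 4.73%. For letters used by clock factors, the E-box CACGTG was present in 3 members (8.57%) against 8.91% of protein-coding genes, and the D-box TTATGTAA in 1 (2.86%) against 1.052%. Also among the letters used by clock factors, the D-box form TTACGTAA was present in 0 against 0.143%. The RORE letters AGGTCA, likewise used by clock factors and contained in AAGGTCA, were present in 9 (25.7%) against 16.7%. The SP1 letters GGGCGG were present in 13 (37.1%) against 49.2%, and the YY1 letters AAGATGGC in 2 (5.71%) against 3.57%. These are counts of letters and were not tested.

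The levels of the members ran from traces to that of Cox8a (ENSMUSG00000035885), a small subunit of complex IV, which stood at 1061 ± 228 FPKM in D-alanine kidneys and 1072 ± 211 FPKM in vehicle kidneys (SD, n = 24 each). Next came Cox6a1 with 799 ± 195 FPKM in D-alanine and 827 ± 199 FPKM in vehicle kidneys, and Cox4i1 with 689 ± 131 FPKM in D-alanine and 702 ± 131 FPKM in vehicle kidneys. The means of Cox6a1 and Cox4i1 differed by less than their SD over libraries, which includes the shift between the tables described below. Library by library, Cox6a1 lay above Cox4i1 throughout the second table and in most but not all libraries of the first. Together the 49 members summed to 11192 ± 2095 FPKM in D-alanine kidneys and 11366 ± 2099 FPKM in vehicle kidneys, which was 2.36% of all FPKM in D-alanine kidneys and 2.30% in vehicle kidneys.

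In complex II, Sdhd and Sdhc, which anchor the enzyme in the membrane, averaged 164 ± 46.9 and 102 ± 26.8 FPKM in D-alanine kidneys, against 157 ± 39.8 and 102 ± 27.5 FPKM in vehicle kidneys. Sdha, the flavoprotein that binds succinate, averaged 127 ± 46.5 FPKM in D-alanine kidneys and 120 ± 38.0 FPKM in vehicle kidneys. Sdhb, the iron-sulfur subunit, averaged 156 ± 28.1 FPKM in D-alanine and 159 ± 30.4 FPKM in vehicle kidneys. Complex III was led by Uqcr10, a small subunit, with 613 ± 118 FPKM in D-alanine kidneys and 637 ± 122 FPKM in vehicle kidneys. Its lowest member was Uqcrc2, a core subunit, with 115 ± 30.1 FPKM in D-alanine and 114 ± 28.2 FPKM in vehicle kidneys. Both nuclear-encoded subunits that carry electrons, Cyc1 (cytochrome c1) and Uqcrfs1 (the Rieske iron-sulfur protein), lay between them, at 352 and 277 FPKM in D-alanine kidneys and 351 and 278 FPKM in vehicle kidneys. Cycs, the mobile carrier to complex IV, was lower, at 72.4 ± 16.5 FPKM in D-alanine and 74.0 ± 14.8 FPKM in vehicle kidneys.

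Complex IV held both the highest and the lowest levels, and several of its subunits exist as pairs of genes. The forms known from heart and skeletal muscle were low in the kidney: Cox6a2 made up 0.429% of Cox6a1 and Cox6a2 together in D-alanine kidneys and 0.406% in vehicle kidneys, and Cox7a1 made up 6.17% of Cox7a1 and Cox7a2 in D-alanine kidneys and 6.00% in vehicle kidneys. Cox4i2, known from lung and for its induction by low oxygen, made up 0.237% of the Cox4 pair in D-alanine kidneys and 0.253% in vehicle kidneys. Cox6b2, known from testis, made up 1.16% of the Cox6b pair in D-alanine kidneys and 1.04% in vehicle kidneys. In each of these pairs the ubiquitous form was far above the other in both treatments. The testis forms Cox7b2 and Cox8c were near absent and did not pass the filter on low values. Cox7b2 was listed at 0 in all 24 D-alanine libraries and in all but 2 vehicle libraries, where it reached 0.295 FPKM. Cox8c was above 0 in 1 D-alanine library (0.182 FPKM) and 1 vehicle library (0.162 FPKM).

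Cox8b (ENSMUSG00000025488, chr7:140898945-140900446, minus strand), the form of Cox8 known from muscle and brown fat of the mouse, was the most uneven member. It ranged from 0 through a median of 0.493 to 12.6 FPKM in D-alanine libraries and from 0 through a median of 0.239 to 8.68 FPKM in vehicle libraries, and was above 0 in 16 D-alanine and 15 vehicle libraries. The highest values were 12.6 FPKM in D-alanine CT8 replicate 2, 10.0 FPKM in D-alanine CT20 replicate 4, 8.68 FPKM in vehicle CT4 replicate 2 and 7.02 FPKM in D-alanine CT0 replicate 1. In those libraries Ucp1, the uncoupling protein that marks brown fat, stood at 16.2, 6.02, 6.49 and 2.84 FPKM, and Cidea, another gene of brown fat, at 10.98, 7.57, 3.04 and 3.64 FPKM. In the other 44 libraries Ucp1 reached at most 2.71 FPKM and Cidea at most 1.73 FPKM. The part of fat tissue in the Cox8b values was not tested.

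In complex V, Atp5b and Atp5a1, the β and α subunits of the catalytic head, led with 541 ± 143 and 478 ± 158 FPKM in D-alanine kidneys, against 517 ± 119 and 455 ± 135 FPKM in vehicle kidneys. The rotor ring of subunit c is encoded by 3 genes whose mature proteins are the same. Atp5g3 supplied 73.8% ± 1.72 of their summed FPKM in D-alanine kidneys and 73.9% ± 1.77 in vehicle kidneys. Atp5g2 supplied 17.0% ± 1.27 in D-alanine and 16.9% ± 1.14 in vehicle kidneys, and Atp5g1 9.16% ± 0.945 in D-alanine and 9.19% ± 0.974 in vehicle kidneys (SD, n = 24 each). The shares differed between treatments by less than their spread. Atp5g1 was the lowest complex V member by its mean over all libraries. Atp5l was close to it with wide overlap, and lay below Atp5g1 in most libraries of the second table. Strand is not stated, so fragments of overlapping genes cannot be assigned: exons of Uqcrc2 overlap Pdzd9, those of Atp5j overlap Gabpa, those of Cox6c overlap Vps13b, and Atp5o overlaps antisense genes.

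**Figure D1:**
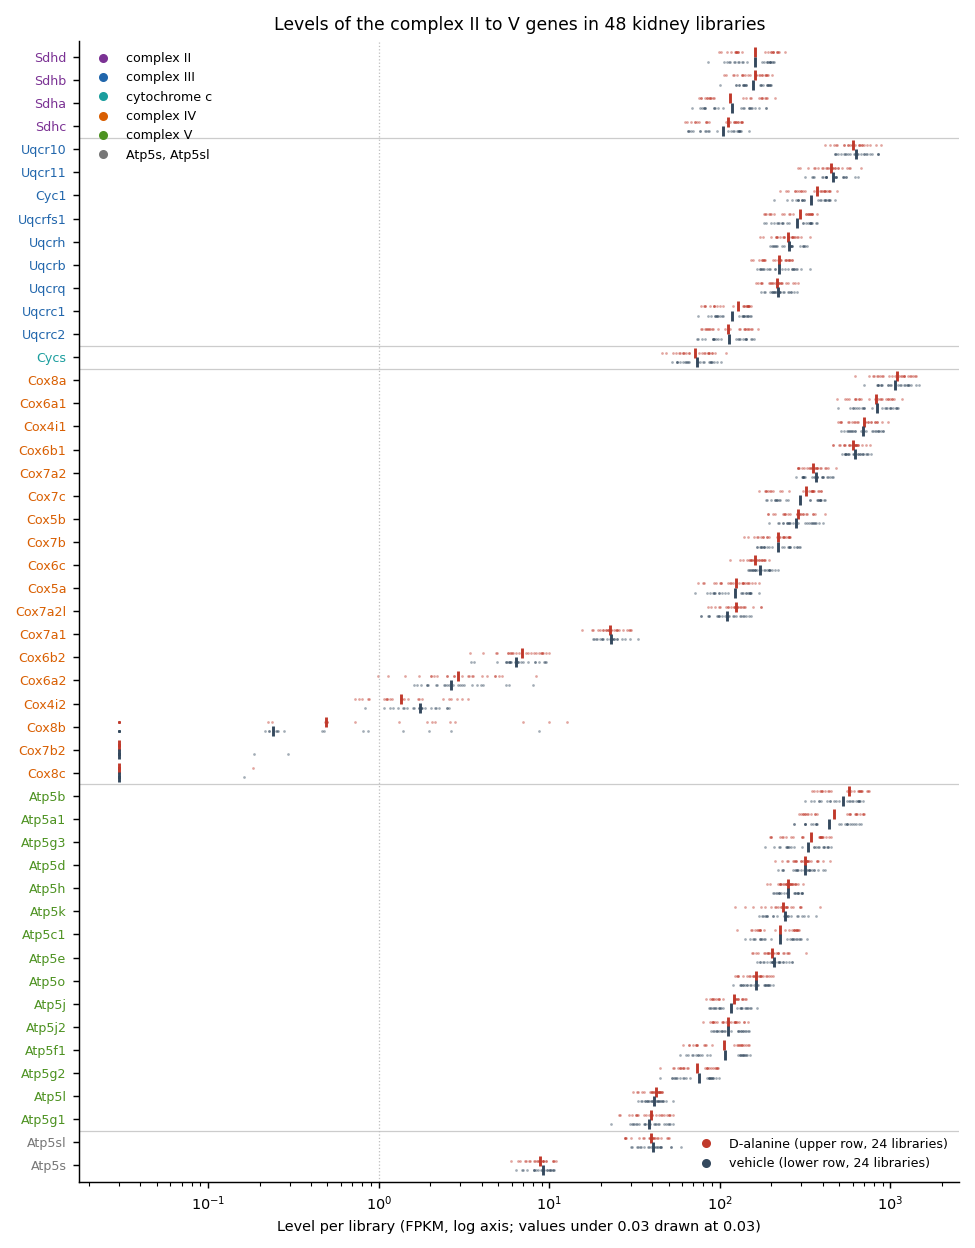
Level of each member in each library as FPKM on a log axis, with D-alanine libraries above vehicle libraries in each row ticks at the medians, members ordered within their complex and values under 0.03 FPKM drawn at 0.03. Cox8a has the highest medians, 1094 FPKM in D-alanine and 1058 FPKM in vehicle kidneys, and Cox7b2 and Cox8c lie at 0 in nearly every library.

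No member passed the test for D-alanine against vehicle as a mean of the 6 times (limma on log2(FPKM + 1), 47 members tested among 14922 genes, Benjamini-Hochberg adjusted p under 0.05). Over all genes 1.59% were higher and 0.147% lower at that threshold, so 0 of 47 members is near the background. At an unadjusted p under 0.05 there were 5 members and 3064 genes. Log2 changes of the members ran from -0.12 to 0.44 with a median of -0.02, and 18 lay above 0 and 29 below, while the median over all genes was 0.06. This order of the medians held under the other scalings, but with TPM the members' median was 0.03 with 37 of 47 above 0, beside 0.11 over all genes, and with median centring it was -0.09 with 3 of 47 above 0. Because 1 FPKM was added before taking log2, the changes of low genes such as Cox4i2 and Cox8b are understated.

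Cox6c (ENSMUSG00000014313, chr15:35925886-35938246, minus strand), a small subunit of complex IV, had the smallest p-value. Cox6c ranged from 115 through a median of 160 to 194 FPKM in D-alanine libraries and from 146 through 171 to 219 FPKM in vehicle libraries. The groups overlapped over most of their range. Its mean log2 change was -0.12 (SE 0.0426, 95% interval -0.21 to -0.03, limma adjusted p = 0.113), and it was lower in D-alanine in 9 of the 12 sets formed by a time within a table.

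Cox7a2l (ENSMUSG00000024248, chr17:83501919-83514333, minus strand), which in mouse helps join complexes III and IV into supercomplexes, had values in the other direction. It ranged from 85.2 through a median of 123 to 174 FPKM in D-alanine libraries and from 77.0 through 111 to 152 FPKM in vehicle libraries. The overlap was again wide, with a log2 change of 0.14 (SE 0.0601, 95% interval 0.02 to 0.26, limma adjusted p = 0.181), above 0 in 10 of 12 sets. With TPM in place of FPKM, Cox7a2l passed the threshold (log2 change 0.20, adjusted p = 0.0275), in a fit in which 2638 genes were called higher. As a share of Cox7a2 and Cox7a2l together it made up 25.9% ± 3.67 in D-alanine kidneys and 23.4% ± 1.91 in vehicle kidneys (SD, n = 24 each).

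Uqcrb, Cox7b and Atp5j2 also had an unadjusted p under 0.05, all below 0 and none past the adjusted threshold. Uqcrb, a subunit that binds ubiquinone in complex III, had 214 ± 36.8 FPKM in D-alanine and 229 ± 49.6 FPKM in vehicle kidneys, a log2 change of -0.09 (adjusted p = 0.188). Cox7b, a small complex IV subunit, had 208 ± 38.5 FPKM in D-alanine and 222 ± 45.9 FPKM in vehicle kidneys and a change of -0.09 (adjusted p = 0.196). Atp5j2, subunit f of the membrane part of ATP synthase, had 111 ± 18.6 FPKM in D-alanine and 116 ± 20.04 FPKM in vehicle kidneys and a change of -0.07 (adjusted p = 0.217). Each of these 3 also overlapped widely between treatments. Next by p-value came Cox6b1 (log2 change -0.07, adjusted p = 0.291), a small complex IV subunit. Within complex III the next were Uqcr10 (-0.06, adjusted p = 0.554) and Uqcrq (-0.05, adjusted p = 0.589), and within complex V Atp5j (-0.05, adjusted p = 0.37) and Atp5a1 (0.05, adjusted p = 0.436). In complex II, Sdha had a change of 0.06 (adjusted p = 0.442), Sdhd 0.05 (adjusted p = 0.484) and Sdhb -0.03 (adjusted p = 0.634).

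By complex, the median log2 change was 0.03 in complex II (3 of 4 members above 0), -0.05 in complex III (2 of 9), -0.04 in complex IV (6 of 16) and -0.00448 in complex V (7 of 15). Nuclear genes of complex I, measured for comparison, had a median of -0.04 (5 of 37 above 0) and also 0 called. The intervals bound what could have been missed for abundant members. For Sdha the 95% interval was -0.03 to 0.15, for Uqcr10 -0.16 to 0.05, for Cox8a -0.12 to 0.08, for Atp5a1 -0.02 to 0.13 and for Atp5b -0.03 to 0.14. Cox8b, in contrast, could not be placed: its log2 change of 0.44 had an interval of -0.11 to 0.998 (adjusted p = 0.352).

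**Figure D2:**
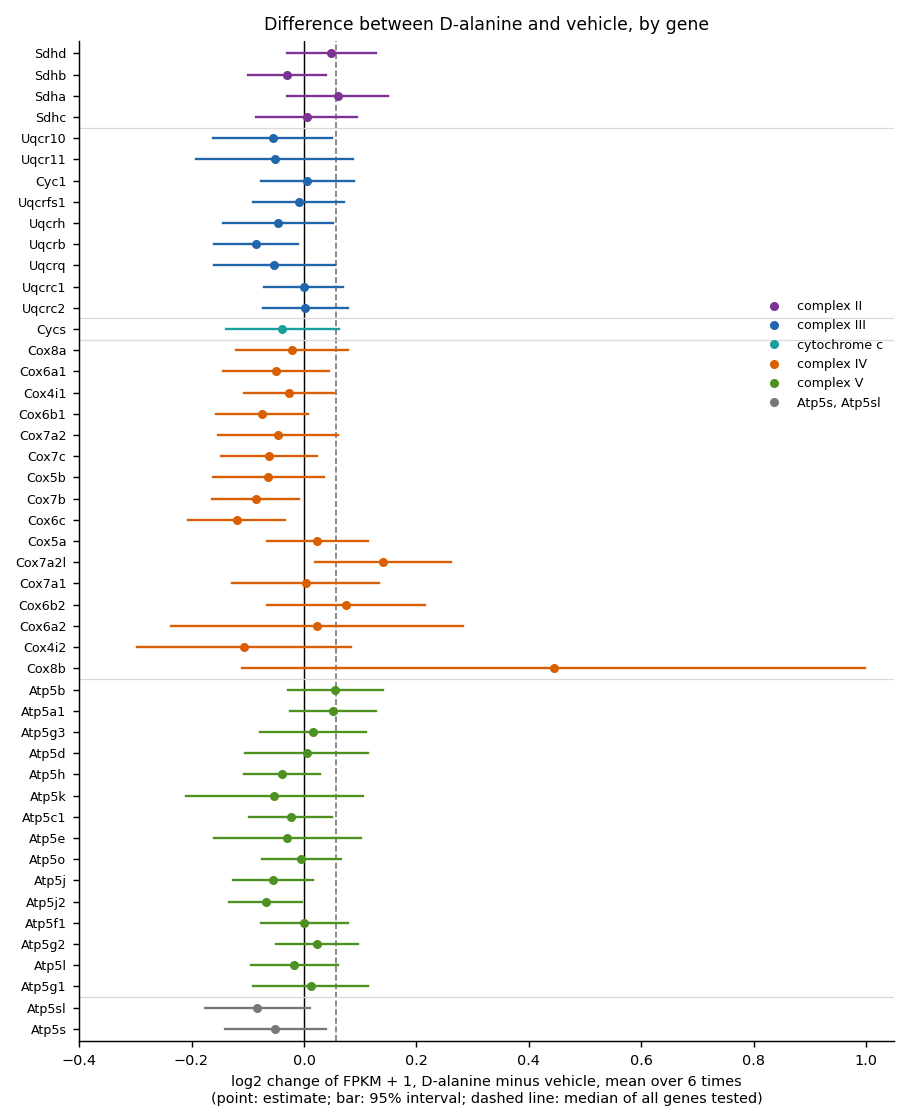
Log2 change of each tested member, as the mean of D-alanine minus vehicle at the 6 times, with its 95% interval, on the log2(FPKM + 1) scale, and a dashed line at the median of all genes tested. Most points lie within 0.1 of 0, Cox6c is lowest at -0.12, and Cox8b is highest at 0.44 with the widest interval.

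Mitochondrially encoded partners of these complexes did pass the test. Of 6 mitochondrially encoded mRNAs of complexes III to V, 3 fell in D-alanine kidneys in this fit: mt-Cytb (30767 FPKM in D-alanine and 35472 FPKM in vehicle kidneys, log2 change -0.23, adjusted p = 0.0115), mt-Co1 (30655 FPKM in D-alanine and 35567 FPKM in vehicle kidneys, -0.21, adjusted p = 0.0187) and mt-Atp8 (86.7 FPKM in D-alanine and 154 FPKM in vehicle kidneys, -0.76, adjusted p = 0.0139). The sign of mt-Cytb flipped under quantile normalization (0.03), where mt-Co1 stood at -0.08 and neither was called. Neither mt-Cytb nor mt-Co1 was called with no filter on low genes (adjusted p = 0.616 and 0.663) or without the table term (0.667 and 0.676). In either table alone none of the 3 passed: the adjusted p was 0.62 for each in the first table, and 0.0755 for mt-Cytb, 0.124 for mt-Co1 and 0.236 for mt-Atp8 in the second. Fragments of mt-Atp8 and mt-Atp6 overlap in the genome. In the main fit, all 6 of these mRNAs and all 7 mitochondrially encoded mRNAs of complex I had log2 changes below 0. Of those 7, 3 passed: mt-Nd2 (-0.33, limma adjusted p = 0.00651), mt-Nd1 (-0.25, 0.0139) and mt-Nd5 (-0.27, 0.0208). None of the complex I mRNAs passed with quantile normalization, with no filter, without the table term or in either table alone. The share of all FPKM from mitochondrially encoded genes was 27.2% in D-alanine and 30.7% in vehicle kidneys, and FPKM divides each library by its total. After rescaling without those genes the members' median change was -0.04 (10 of 47 above 0).

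At single times, again 0 of 47 members passed the threshold. At CT0 1.14% of all genes did (170 genes), and at an unadjusted p under 0.05 there were 5 members and 3281 genes. Cox6c at CT0 stood at 137, 115, 151 and 164 FPKM in D-alanine kidneys, against 151, 172, 181 and 219 FPKM in vehicle kidneys. Pooled over the tables, the groups overlapped, with 2 of the D-alanine values above the lowest vehicle value. Within each table the D-alanine values all lay below the vehicle values. The log2 change was -0.35 (SE 0.104, limma adjusted p = 0.0691), and Cox6c passed the threshold when vehicle CT0 replicate 1 (adjusted p = 0.0298) or D-alanine CT0 replicate 4 (adjusted p = 0.0421) was left out. Those fits called 1247 and 741 genes at CT0 in that order, against 170 with all libraries.

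Cox7a2l at CT0 stood at 121, 174, 136 and 139 FPKM in D-alanine kidneys, against 97.8, 98.5, 132 and 119 FPKM in vehicle kidneys. Pooled over the tables, the groups overlapped through a single vehicle library. Within each table the D-alanine values all lay above the vehicle values. The log2 change was 0.35 (SE 0.147, limma adjusted p = 0.163). With TPM, Cox7a2l (log2 change 0.49, adjusted p = 0.0277) and Atp5a1 (0.34, adjusted p = 0.0325) passed at CT0, in a fit that called 2612 genes there.

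At CT4, CT8, CT12, CT16 and CT20, 0% of genes passed the threshold. The unadjusted counts of genes were 381, 2215, 338, 708 and 384 in that order of times, and only CT8 had members among them, which were Cox7b, Cox7c, Uqcrb and Atp5j2, all below 0. The members' median log2 change was -0.07 at CT0, -0.00 at CT4, -0.12 at CT8, -0.05 at CT12, 0.08 at CT16 and 0.02 at CT20. At CT8 6 of 47 members lay above 0, and at CT16 40 of 47. Nuclear complex I genes had 2 of 37 above 0 at CT8 and 31 of 37 at CT16. In the first table alone the members' median was -0.15 at CT8 and 0.15 at CT16, and in the second table -0.08 and 0.01. The treatment by time interaction was called for 0% of genes, for 0 members, and at an unadjusted p under 0.05 for 0 members and 527 genes (limma F test, smallest p among members 0.209). Treatment by table was likewise called for 0% of genes and 0 members (unadjusted, 0 members and 573 genes).

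**Figure D3:**
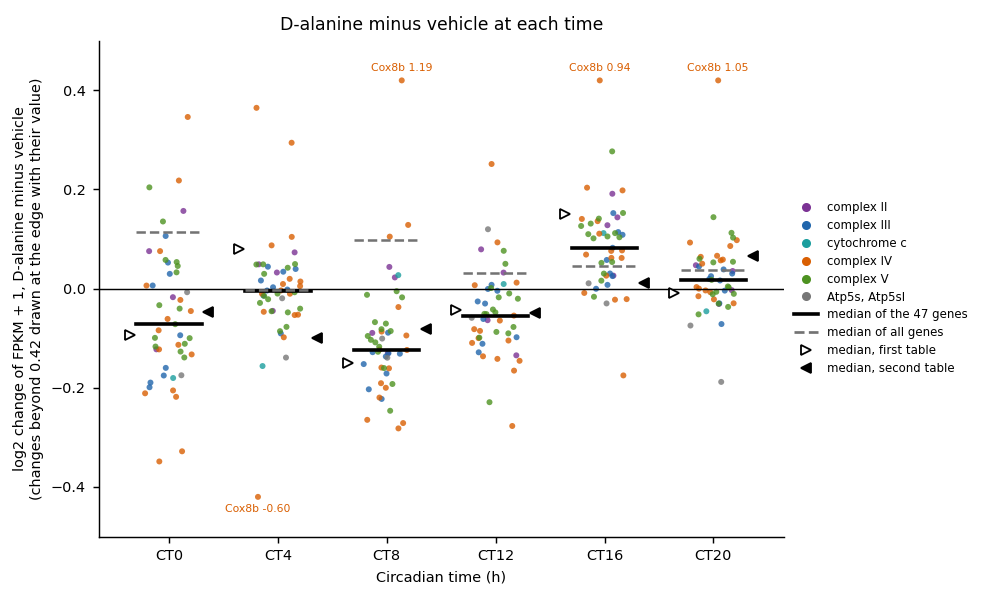
Log2 change of each tested member, D-alanine minus vehicle, at each circadian time, on the log2(FPKM + 1) scale, with changes beyond 0.42 drawn at the edge, solid bars at the members' median, dashed bars at the median of all genes and triangles at the members' median in each table. The members' median is lowest at CT8 (-0.12) and highest at CT16 (0.08), and no single change passed the threshold.

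Daily variation was small in the subunit genes. With a 24 h cosine fitted in common to both treatments, 26.5% of all genes passed the threshold but 2 of 47 members (limma F test, adjusted p under 0.05; unadjusted, 8 members and 5814 genes), and both were the members that encode no subunit. The median fitted amplitude was 0.038 among members and 0.096 among all genes, on the log2 scale.

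Atp5sl (ENSMUSG00000057229, chr7:25619414-25625551, plus strand), known from human cells as a factor in the assembly of complex I, was the clearest rhythmic member. In D-alanine kidneys it stood at 35.6, 27.9, 27.7 and 30.0 FPKM at CT0 and at 41.6, 48.8, 45.1 and 42.6 FPKM at CT8. In vehicle kidneys it stood at 30.6, 41.3, 35.7 and 30.3 FPKM at CT0 and at 59.5, 51.4, 44.6 and 42.3 FPKM at CT8. Within each treatment the 4 values at CT8 all lay above the 4 at CT0. Over both treatments the means were 32.4 ± 4.73 FPKM at CT0, 43.0 ± 5.74 at CT4, 46.97 ± 6.07 at CT8, 43.2 ± 3.67 at CT12, 35.4 ± 4.89 at CT16 and 37.2 ± 4.22 at CT20 (SD, n = 8 each). The fitted amplitude was 0.23 (SE 0.0354) with a peak at CT8.67 (adjusted p = 1.56e-05). In D-alanine kidneys alone the amplitude was 0.23 with a peak at CT8.92 (adjusted p = 0.00757), where 8.3% of genes and 1 of 47 members were called. In vehicle kidneys alone it was 0.22 with a peak at CT8.41 (adjusted p = 0.0081), where 9.77% of genes and 1 of 47 members were called. A difference of the rhythms between treatments was called for 0% of genes and 0 members (unadjusted, 0 members and 353 genes) by limma. The adjusted p for Atp5sl was 0.999979. The rhythm of Atp5sl also passed in the first table alone (amplitude 0.24, adjusted p = 0.0193) and in the second table alone (0.22, adjusted p = 0.00298).

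Atp5s (ENSMUSG00000054894, chr12:69724962-69744658, plus strand), described in bovine mitochondria as a coupling factor of ATP synthase, was called with less margin. It averaged 8.20 ± 1.55 FPKM at CT0, 9.21 ± 1.26 at CT4, 9.53 ± 0.612 at CT8, 8.91 ± 1.37 at CT12, 8.82 ± 0.934 at CT16 and 8.13 ± 1.403 at CT20 (SD, n = 8 each). The ranges at all times overlapped. The amplitude was 0.10 (SE 0.0311) with a peak at CT8.68 (adjusted p = 0.0344). That call was lost when vehicle CT8 replicate 1 or 2, vehicle CT20 replicate 1, D-alanine CT8 replicate 2 or D-alanine CT20 replicate 2 was left out (adjusted p 0.0571 to 0.0693). It was also lost with TPM (adjusted p = 0.0995), with no filter on low genes (0.0565), after rescaling without mitochondrially encoded genes (0.0754), without the table term (0.145), with proximal tubule markers as a covariate (0.144), without the libraries high in adipose markers (0.0948), and in the first (0.088) and the second table (0.564) alone.

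Among the 45 subunit genes tested, none was called rhythmic in this fit. Cox6a2, the muscle form, had an amplitude of 0.26 with a peak at CT12.2 (adjusted p = 0.0666), Sdhd 0.07 (adjusted p = 0.0959), Sdha 0.08 (adjusted p = 0.0989) and Sdhb 0.07 (adjusted p = 0.109). Cox4i2 and Cox6b2, also rare forms, had amplitudes of 0.16 (adjusted p = 0.145) and 0.12 (adjusted p = 0.118). Atp5b averaged between 499 FPKM at CT8 and 573 FPKM at CT4, with an amplitude of 0.08 (adjusted p = 0.121), and Atp5g1 and Atp5k had 0.08 each (adjusted p = 0.145 and 0.492). In complex III the amplitudes were at most 0.06, in Uqcrh (adjusted p = 0.409), and that of Cycs was 0.04 (adjusted p = 0.669). When any difference among the times was tested, without assuming a cosine, 20.5% of genes and 1 of 47 members, Atp5sl (adjusted p = 1.75e-05), were called, and Atp5b had an adjusted p of 0.0515 (unadjusted, 4 members and 5189 genes).

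**Figure D4:**
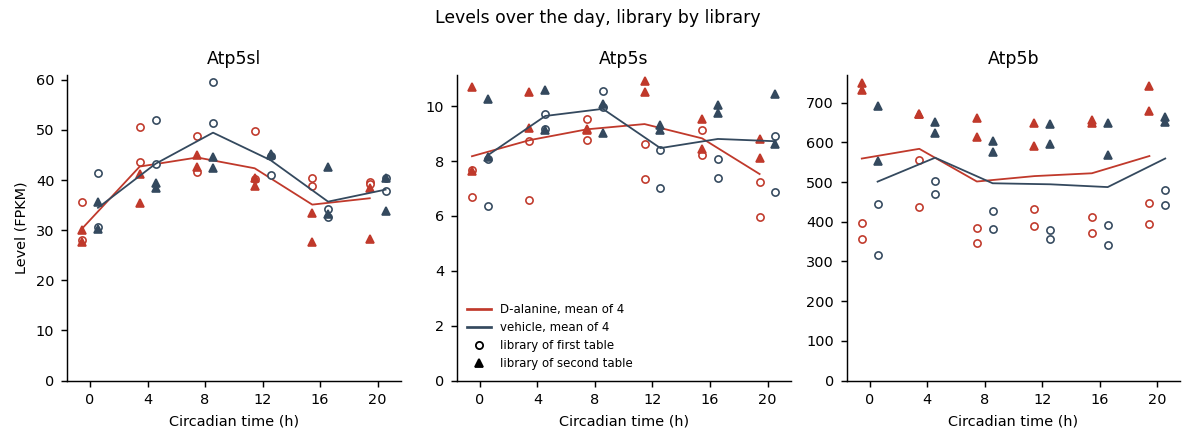
FPKM per library against circadian time for Atp5sl, Atp5s and Atp5b, with lines through the means of the 4 D-alanine and the 4 vehicle libraries, circles for the first table and triangles for the second. Atp5sl is highest around CT8 in both treatments, where its mean over both was 46.97 FPKM, against 32.4 FPKM at CT0.

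The members' values also differed between the tables, which is described here without a test. Second table minus first, their median log2 shift was 0.48, against 0.07 over all genes and 0.35 over the 2442 genes above 20 FPKM. Sdha averaged 163 ± 20.8 FPKM in the second table and 85.0 ± 7.98 FPKM in the first (SD, n = 24 each), a shift of 0.92. The lowest value of Sdha in the second table was 133 FPKM and the highest in the first was 104 FPKM, so the tables did not overlap. Atp5a1 averaged 604 FPKM in the second table and 329 FPKM in the first and shifted by 0.87, and Atp5f1, subunit b of the stalk, shifted by 0.88. Atp5e, the ε subunit, shifted by 0.07 and Cox7a1 by 0.07, while Atp5sl shifted by -0.15 and Cox6a2 by -0.26. By complex the median shift was 0.73 in complex II, 0.49 in complex III, 0.41 in complex IV and 0.48 in complex V, and 0.43 in nuclear complex I genes.

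The share of FPKM from mitochondrially encoded genes moved with the tables: in the second table it was 17.0% in D-alanine and 19.9% in vehicle kidneys, and in the first one 37.4% in D-alanine and 41.4% in vehicle kidneys. After rescaling without those genes the members' median shift was 0.18, against -0.15 over all genes. Above 20 FPKM it was 0.19 in the members and 0.05 over the 2442 genes. The 49 members then made up 3.44% of FPKM in D-alanine and 3.48% in vehicle kidneys in the second table, and 2.97% in D-alanine and 3.11% in vehicle kidneys in the first. Each table holds both treatments at every time, and the table enters the fit as a term.

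**Figure D5:**
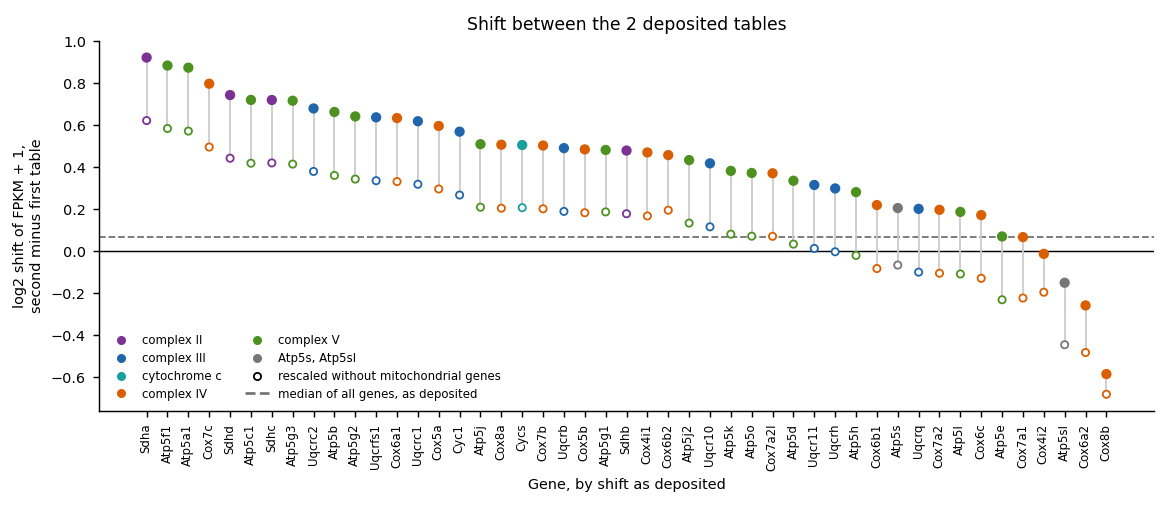
Log2 shift of each tested member between the tables, second minus first, as deposited (filled) and after rescaling without mitochondrially encoded genes (open), with a dashed line at the median of all genes as deposited. Sdha, Atp5f1 and Atp5a1 shift most (0.92, 0.88 and 0.87 as deposited), and Cox8b and Cox6a2 lie below 0.

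Within groups and tables, the members varied together. After the group and table means were removed, the median residual SD was 0.153 among members and 0.203 over all genes (log2), smallest for Atp5j2 (0.105) and largest for Cox8b (0.99). For a principal component analysis, the residuals of each gene were divided by their SD. The first component held 42.5% of the variance of the 47 members, and 40 of them loaded on it with the same sign. In a separate decomposition of all 14922 genes, a much larger set, the first component held 19.5%. The strongest loadings were those of Cox4i1, Uqcr10, Uqcrh, Uqcr11 and Cox8a, small or structural subunits of complexes III and IV. The 7 with the opposite sign were Sdha, Sdhd, Uqcrc2, Cycs, Cox8b, Atp5a1 and Atp5s. Their loadings were small, -0.096 for Cox8b, -0.079 for Sdha and -0.004 to -0.030 for the others, beside 0.208 for Cox4i1. On the second component (17.4% of the variance) Uqcrc2, Sdhd, Atp5a1 and Sdha loaded at 0.32, 0.28, 0.27 and 0.27. Libraries at the ends of the first component were D-alanine CT12 replicate 2 and D-alanine CT20 replicate 4, where the members with strong loadings on it were low, and D-alanine CT4 replicate 1, where they were high. Since members move together from library to library, counts of members above or below 0 do not come from independent genes.

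Genes that assemble, regulate or feed these complexes gave few calls for treatment. None of 4 complex II assembly genes, 6 complex III assembly genes, 21 tested complex IV assembly and copper delivery genes or 4 complex V assembly and inhibition genes passed, nor any of 13 transcriptional regulators or 13 citric acid cycle genes (limma, adjusted p under 0.05; unadjusted, 1, 0, 4, 1, 3 and 0 in that order of lists). The smallest p-values were those of Taco1, a translational activator of mitochondrial cytochrome oxidase mRNA (7.70 FPKM in D-alanine and 6.504 FPKM in vehicle kidneys, log2 change 0.20, adjusted p = 0.0771), and Atpaf2, an assembly factor of the ATP synthase head (13.6 FPKM in D-alanine and 12.3 FPKM in vehicle kidneys, 0.13, adjusted p = 0.0862). Of the complex that shapes the cristae, 1 of 6 genes fell: Apool averaged 9.15 FPKM in D-alanine and 10.1 FPKM in vehicle kidneys (log2 change -0.14, adjusted p = 0.0271) and was lower in 12 of 12 sets, but it was not called with TPM (adjusted p = 0.0791), after rescaling without mitochondrially encoded genes (0.05003), without the table term (0.548), in the first table alone (0.62) or in the second (0.253). In the other lists the smallest were those of Sdhaf2 (0.10, adjusted p = 0.149) for complex II assembly, Ttc19 (-0.04, adjusted p = 0.565) for complex III assembly, and Sucla2 (0.08, adjusted p = 0.308) and Dlst (0.07, adjusted p = 0.355) for the citric acid cycle. Cmc1 of complex IV assembly had -0.12 (adjusted p = 0.104), Apoo of the cristae list -0.09 (adjusted p = 0.207), and Ndufb6 and Ndufa4l2 of complex I -0.10 and 0.19 (adjusted p = 0.18 and 0.182). Among the regulators, Pprc1 had a change of 0.12 (adjusted p = 0.113) and Tfam, the mitochondrial transcription factor, 0.12 (adjusted p = 0.118).

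Some of these partner genes were called rhythmic, beside 26.5% of all genes. For assembly, the calls were 2 of 4 genes of complex II, 1 of 6 of complex III, 3 of 21 of complex IV and 1 of 4 of complex V. Among regulators 2 of 13 were called, among citric acid cycle genes 2 of 13 and in the cristae list 0 of 6. Of 37 nuclear complex I genes 1 was called, Ndufc2 (limma adjusted p = 0.0467). Coa6, which takes part in copper delivery to complex IV, had a common amplitude of 0.27 with a peak at CT11.5 (adjusted p = 1.47e-09), and Cmc1 and Cmc2 of the same list were also called. Sdhaf4 and Sdhaf1, which assemble complex II, peaked at CT9.27 and CT9.64 (adjusted p = 0.00881 and 0.0232). Uqcc2 of complex III assembly (adjusted p = 0.0422), Tmem70 of complex V assembly (adjusted p = 0.00337), and Tfam and Yy1 among the regulators (adjusted p = 0.0267 and 0.0498) passed as well, as did Sucla2 and Suclg2 of the citric acid cycle, all limma F tests in the common fit.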

How the data were processed

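Kidney mRNA libraries of D-alanine and vehicle mice (24 each, 4 per treatment and time) were grouped by their labels. Replicate numbers follow sample order and pair no samples. FPKM values, fragments scaled by exon length and library total, were deposited for 49585 genes. The submitters' processing notes name the build GRCm38 (mm10), and for aligner, counter and strand nothing is stated in the sources used here. Low values moved in steps of 1 fragment, from which depth was recovered with GENCODE exon lengths.

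The filter (1 FPKM or more in 4 libraries or more) left 14922 genes. Their log2(FPKM + 1) values were fitted in limma (version 3.58.1, R 4.3.3) with trended moderation, 12 groups and an additive table term (35 residual degrees of freedom). Tests are two-sided, with Benjamini-Hochberg adjustment over all 14922 genes and a threshold of 0.05. In the group fit, differences are set against the spread between kidneys left after groups and table. The rhythm was a 24 h cosine and sine, fitted separately with treatment and table but without the 12 groups. Its spread therefore also holds differences among times that the curve misses. Scripts were tested on simulated data.

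The members, lists and settings were chosen with earlier results of these data known. Members were named if they passed a test, had one of the 3 smallest treatment p-values or 3 largest amplitudes of their complex, were its highest or lowest, or belonged to an isoform set. List genes were named mostly from those that passed or had one of the 2 smallest p-values, and not all of those are named. Members named for their table shift, loading or overlap were chosen after their values were seen. Alternatives changed the pseudocount (0.1), filter, scaling, table term, tables, marker covariates and moderation, or left out each library; leaving out the libraries with summed adipose markers over 20 FPKM was chosen after seeing the data.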

Additional observations from a re-analysis of the deposited data

Results flagged for a closer look

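Libraries far from the other 3 of their group were sought in 84 groups of 4 (the summed members, Atp5sl, Atp5s, Cox8b, Atp5b, Cox7a2l and Cox6c), by the gap to the nearest library as a share of the group's range. In 7 groups the share was above Dixon's 95% critical value. Chance gives about 5% of groups, or 1 in 20, only if values are normal and not shifted between tables. Each group mixes libraries of both tables without adjustment, so a member with a large table shift splits by table and can hardly be flagged. The 5% therefore does not hold for all 84 groups.

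Atp5sl accounted for 4 of them. In D-alanine kidneys 1 library stood high at CT12 (49.86 FPKM, the others 38.89 to 40.43) and 1 low at CT20 (28.22 FPKM, the others 38.4 to 39.62). In vehicle kidneys 1 stood low at CT12 (40.93 FPKM, the others 44.7 to 45.28) and 1 high at CT16 (42.66 FPKM, the others 32.55 to 34.27). Cox8b accounted for the other 3, with 7.017 FPKM in D-alanine CT0 replicate 1, 12.62 FPKM in D-alanine CT8 replicate 2 and 8.679 FPKM in vehicle CT4 replicate 2, where the next library of the group had 0.237, 2.04 and 1.38 FPKM. Summed adipose markers in these Cox8b libraries were 36.04, 71.8 and 20.8 FPKM, and their part in the Cox8b values was not tested.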

How the results depend on the processing

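Counts of members higher (0), lower (0), with a treatment by time or by table interaction (0) or with a rhythm that differs between treatments (0) moved under 1 setting only: with TPM, 1 member was higher (Cox7a2l). At single times TPM called 2 members, against 0 to 1 with each library left out (Cox6c at CT0 without vehicle CT0 replicate 1 or D-alanine CT0 replicate 4). The members' median log2 change was -0.03 to -0.01 with each library left out. For the common rhythm, 2 members became 1 with no filter, with no table term, in the second table alone and with times as a factor, and 5 with inner medulla markers as a covariate (Atp5b, Atp5s, Atp5sl, Cox6a2 and Sdhb). There were 3 with proximal tubule markers as a covariate (Atp5b, Atp5sl and Sdha) and with quantile normalization (Atp5s, Atp5sl and Sdhb). Of the settings that gave 2, Atp5s was replaced by Atp5b with TPM, by Sdhb after rescaling without mitochondrially encoded genes, by Cox7a2l in the first table alone and by Cox6a2 without the high-adipose libraries. Leaving out each library gave 1 to 5: Atp5s was lost without vehicle CT8 replicate 1 or 2, vehicle CT20 replicate 1, D-alanine CT8 replicate 2 or D-alanine CT20 replicate 2, 4 members were called without vehicle CT20 replicate 2, D-alanine CT4 replicate 1 or D-alanine CT12 replicate 2, and 5 without D-alanine CT20 replicate 4. In vehicle kidneys, 1 rhythmic member became 2 with quantile normalization and 0 in either table alone and with proximal tubule markers as a covariate. In D-alanine kidneys, 1 became 2 with that covariate and 0 in the first table alone and without the high-adipose libraries. For any difference among times, 1 member became 2 with quantile normalization, with a table by time term and with either marker covariate, 5 in the first table alone (Atp5e, Atp5k, Atp5sl, Cox7a2 and Uqcrh), 1 to 3 with each library left out, and 3 without vehicle CT0 replicate 2 (Atp5b, Atp5sl and Sdhb). The first and second table alone have fewer samples; other causes were not tested.

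Over all genes, 237 were higher in D-alanine kidneys; that count was 2638 with TPM, 3 with quantile normalization or median centring, 35 after rescaling without mitochondrially encoded genes, 15 without the table term, 0 in the first table alone and 1107 with the proximal tubule covariate. Of single-gene results, 2878 amplitudes and 2913 log2 changes kept their side of the threshold, 23 amplitudes and 1 log2 change passed it, and 13 amplitudes lost it. Of 2914 log2 changes compared, 217 changed sign, 141 of them with a library left out, 19 with TPM and 15 with median centring, and 0 of those were called. No paired analysis was possible because replicate numbers follow sample order and pair nothing. Depth limits Cox7b2, with 3 fragments in all libraries.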
